A study of Homo sapiens with 4 samples.

Results

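The genes described here are 10 genes that are switched on by, or act back on, the RAS-ERK branch of MAPK signalling: the phosphatase genes DUSP4 and DUSP6, the Sprouty genes SPRY1, SPRY2 and SPRY4, the Spred genes SPRED1 and SPRED2, and the ETS transcription factor genes ETV1, ETV4 and ETV5. They were chosen by name, with earlier results of these data known, as 10 of 19974 protein-coding genes. Every peak with a member as its nearest gene was taken, at any distance. The peaks came from ChIP-seq, in which DNA bound to a precipitated protein is sequenced, in 501mel, an established human melanoma cell line with an activating BRAF mutation. The T-box transcription factor TBX3 was expressed in these cells as TBX3-3xHA, a fusion with a short peptide tag, and was precipitated with an antibody to that tag. There were 2 ChIP samples of this 1 condition and 2 input samples of the same line, and input DNA was not used here. The labels do not say whether the replicates were separate cultures. The tagged protein was followed in place of the cell's own TBX3, and no ChIP from untagged cells was analysed here. Peak lists hold no expression, so the identity of the line was not checked against markers.

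Growth factor receptors activate RAS, which starts the kinase cascade from RAF through MEK to ERK. ERK then raises the transcription of its own brakes: dual-specificity phosphatases remove phosphate from ERK, Sprouty proteins restrain signalling between receptor and RAS, and Spred proteins bring the RAS inhibitor neurofibromin to the membrane. ETV1, ETV4 and ETV5 are the closely related PEA3 group of ETS factors, which act as transcriptional effectors of the same cascade. In melanocytic tumours, where BRAF or NRAS is often mutated, the levels of these genes are widely read as a measure of ERK output, and SPRED1 is a tumour suppressor in some melanomas. ChIP-seq shows where the tagged protein was enriched, not how strongly a gene was transcribed.

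Start-site sequences from RefSeq (GRCh38.p14) were at hand for 7 of the 10 genes, DUSP6, SPRY1, SPRY2, SPRY4, SPRED1, SPRED2 and ETV1, in 16 windows that run from 250 bases before to 50 after a start. The table held no entry for DUSP4, ETV4 and ETV5. None of the 16 windows contained a summit (the base at the top of a peak) of these genes, but several summits lay close outside one. The stretches below are that of SPRY2, whose window ended 94 bp from a shared summit, and those of the outermost starts of ETV1 and SPRY1, shown with SPRY2 because each holds a motif match. SPRY1 had no summit within 10 kb. Each is written 5′ to 3′ on the strand of the gene and ends at the base before the start. Capitals mark matches to the motifs TCATGTG and TCACGTG, which MITF, the master regulator of melanocytes, is known to bind.
SPRY2, chr13:80341127-80341376, minus strand: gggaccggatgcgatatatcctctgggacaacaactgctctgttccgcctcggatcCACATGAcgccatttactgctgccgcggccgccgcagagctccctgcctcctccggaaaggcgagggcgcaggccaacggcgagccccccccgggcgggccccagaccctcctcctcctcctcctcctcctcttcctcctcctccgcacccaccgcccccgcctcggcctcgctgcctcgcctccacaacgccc
ETV1, chr7:13991426-13991675, minus strand: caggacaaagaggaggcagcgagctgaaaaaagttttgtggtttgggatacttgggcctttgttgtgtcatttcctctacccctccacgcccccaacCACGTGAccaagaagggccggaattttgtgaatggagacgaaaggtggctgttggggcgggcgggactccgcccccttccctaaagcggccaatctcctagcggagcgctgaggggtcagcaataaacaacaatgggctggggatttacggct
SPRY1, chr4:123396545-123396794, plus strand: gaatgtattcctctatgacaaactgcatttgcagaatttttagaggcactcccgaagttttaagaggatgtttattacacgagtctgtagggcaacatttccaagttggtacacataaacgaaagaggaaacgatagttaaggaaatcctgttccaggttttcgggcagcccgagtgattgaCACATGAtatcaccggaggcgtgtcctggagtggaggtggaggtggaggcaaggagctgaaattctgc

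The T-box half-site GGTGTGA, searched on both strands, was in none of the 16 windows and in 3.45% of all 35116 windows of the table. TCATGTG was in 3 of 16 windows, at SPRY1, SPRY2 and a downstream start of ETV1, against 2.92% of all windows. Its match at SPRY2 began 194 bases upstream of the start and that at SPRY1 68 bases upstream. TCACGTG was in 1 window, 153 bases upstream of the outermost start of ETV1, against 3.71%. The AP-1 motif TGANTCA was in 1 window, at an internal start of SPRED2, against 7.71%. The ETS motif CCGGAAGT was in none, against 4.14%. TCATGTG and TCACGTG differ in 1 base of their letters. Several windows of ETV1 overlap, so the 16 are not independent, and a match to these letters is a description of the window and not a binding site.

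Of the 10 genes, 9 had summits in both lists and SPRY4 had none in either. The genes were the nearest gene of 74 summits among 32479 in replicate 1 and of 91 summits among 40494 in replicate 2. A summit was called shared when it and a summit of the other list were each other's nearest and lay within 200 bp. This gave 57 shared regions, and both lists named the same gene for each of the 57. The shared summits made up 77% of the member summits in replicate 1 (95% Wilson interval 66.3% to 85.1%) and 62.6% in replicate 2 (52.4% to 71.9%). Over all summits the shares were 69.9% and 56.1%, and both lay within the intervals of the member shares. Intervals cover counting error only. The paired summits were a median of 32 bp apart and at most 142 bp, and over all 22702 pairs the median was 28 bp.

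The numbers of shared regions per gene ranged from 0 to 10. ETV1 had 10, ETV5 had 9, DUSP6 and SPRED1 had 7 each, SPRY1 and SPRED2 had 6 each, DUSP4 had 5, ETV4 had 4, SPRY2 had 3 and SPRY4 had 0. There were 5 or more at 7 of the 10 genes, against 2.69% of protein-coding genes. With pairing within 50 bp there were 5 or more at 3 of the 10, against 1.34%. Among the 5000 highest scores of each list it was 0 of the 10, against 0.0801%. A nearest-gene count grows with the empty sequence around a gene, and these genes lay in wide intervals. From one non-overlapping protein-coding neighbour to the next, the gene itself included, the median was 810.3 kb, against 98.3 kb for protein-coding genes. Counting every shared region in these intervals, whichever gene it was assigned to, there were 0.937 per 100 kb around the 10 genes and 0.730 around all genes, pooled, which gives long intervals the most weight. The median per gene was 1.12 per 100 kb for the 10 genes and 0 for protein-coding genes. These medians still depend on length, since the shorter intervals of protein-coding genes held a median of 0 regions. Among the 10, the interval of ETV5 was the densest, with 3.82 regions per 100 kb over 209.2 kb, and that of SPRY2 the sparsest, with 0.231 over 4321 kb.

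**Figure D1:**
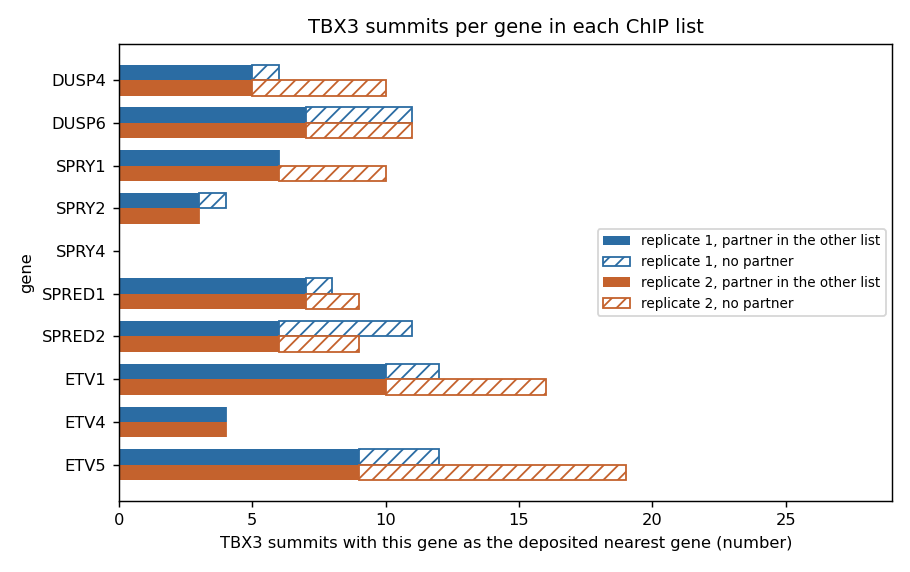
Number of TBX3 summits (x axis) with each of the 10 genes (y axis) as the deposited nearest gene, in replicate 1 (blue) and replicate 2 (orange); filled bars are summits with a partner within 200 bp in the other list and hatched bars those without. DUSP6, ETV4 and SPRY4 are alike in both lists, with 11, 4 and 0 summits, while ETV5 has 12 in replicate 1 and 19 in replicate 2.

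The feedback and ETS genes were then compared with all protein-coding genes by distance. A shared region lay within 1 kb of an annotated transcription start site (TSS) of 6 of the 10 genes, where 2.99% of protein-coding genes had one. The 6 were DUSP4, DUSP6, SPRY2, SPRED1, ETV1 and ETV4, the start of ETV4 being an internal one near the downstream end of its span. Within 10 kb there were 7 of 10, SPRED2 being added, against 10.1%. Among the 5000 highest scores of each list these counts were 3 and 4 of 10, against 0.806% and 2.53%. Within 50 kb there were 9 of 10, SPRY1 and ETV5 being added, against 22.9%, and at any distance the same 9 against 28.6%. The 95% Wilson interval of 6 of 10 is 31.3% to 83.2%. With 1 condition and a set of genes chosen by name with earlier results of these data known, no test was made of these counts. Another count used the start sites of the RefSeq table and took any shared region, whichever gene it was assigned to. By this count, 4 of the 7 members in that table had one within 1 kb, against 3.46% of its 15813 protein-coding genes. Within 10 kb it was 5 of the 7, against 12.8%. Within 50 kb it was all 7, SPRY4 included, against 41.6%.

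**Figure D2:**
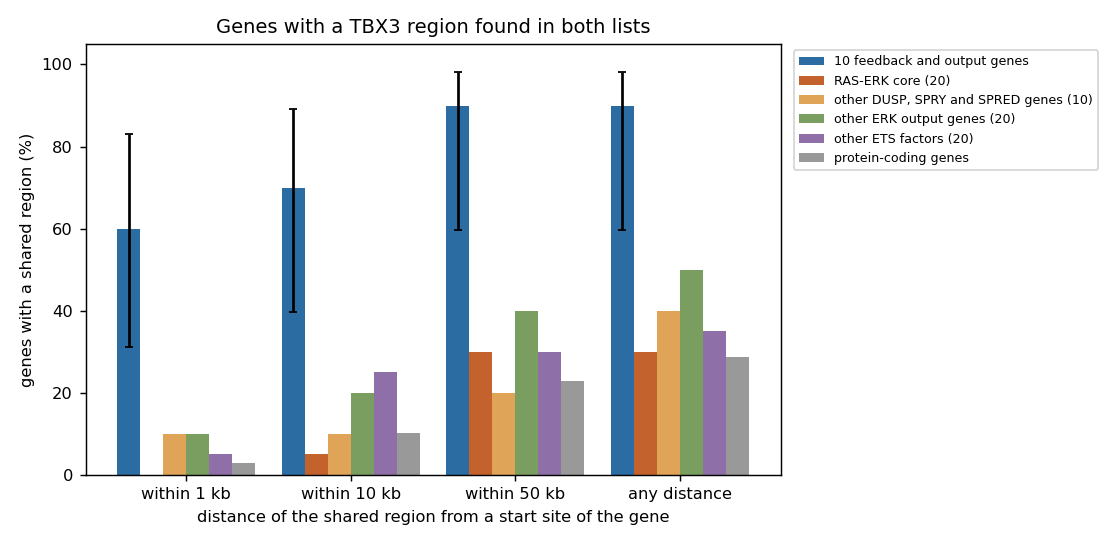
Percentage of genes (y axis) with a shared TBX3 region within 1, 10 or 50 kb of a start site or at any distance (x axis), for the 10 genes (blue, with 95% Wilson intervals), 4 lists of other pathway genes and 19974 protein-coding genes (grey). The blue bars run from 60% to 90%, above the grey bars of 2.99% to 28.6% at each limit.

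By the sum of its score ranks in the 2 lists, the strongest region of the set lay at the promoter of DUSP6, the phosphatase that acts on ERK in the cytoplasm (gene ID 1848, chromosome 12, 89347235 to 89352501 in GRCh38.p14). Its summits were at 89352796 in replicate 1 and 89352826 in replicate 2, annotated as promoter and 63 and 33 bp downstream of the TSS used in the deposited files. That TSS is 358 bp from the end of the gene in the RefSeq table, and by the table's start the same summits were 295 and 325 bp upstream, the first 45 bp outside its start window. The deposited peak score, a value of the authors that is used here only to rank peaks within a list, was 240.1 in replicate 1 and 235.8 in replicate 2. As percentiles of their lists these were 98.8 and 97.7, a mean of 98.3 ± 0.779 (SD, n = 2). It was the highest of the 57 regions in replicate 1, while in replicate 2 distal regions of DUSP4 (251.6) and SPRED2 (250.0) were higher. A second strong DUSP6 region stood beyond the other end of this short gene, 6429 bp downstream of the TSS, with scores of 115.2 and 183.7 (percentiles 95.1 and 96.4).

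The other 5 shared regions of DUSP6 lay 18092 to 127216 bp from the TSS, 2 upstream and 3 downstream, with replicate 1 scores of 7.07 to 27.0 and replicate 2 scores of 15.5 to 41.9. They were therefore weaker than both regions at the gene in either list. Each list also held 4 DUSP6 summits without a partner, among them 1 of replicate 2 in the intron of DUSP6, 2930 bp from the TSS with a score of 24.6, and 3 of replicate 1 within the neighbouring gene POC1B, with scores of 5.12 to 7.12.

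DUSP4 encodes a nuclear phosphatase of ERK (gene ID 1846, chromosome 8, 29333064 to 29350684). It had 5 shared regions of 6 summits in replicate 1 and 10 in replicate 2, and all 5 were upstream of the gene. At the promoter the summits were at 29351120 and 29351143, 370 and 393 bp upstream of the TSS, with scores of 26.3 and 29.1 (percentiles 72.2 and 70.8). A second region, in a CpG island 2458 bp upstream, was stronger, with scores of 49.1 and 99.2 (84.9 and 91.3). The strongest stood 139921 bp upstream, at 29490671 and 29490611, with scores of 79.1 and 251.6 (91.4 and 98.0). DUSP4 thus differed from DUSP6 in the place of its top region, which was distal at DUSP4 and at the promoter of DUSP6 in both lists. Farther out, regions 153204 and 171721 bp upstream had scores of 16.6 and 7.85 in replicate 1 and 34.3 and 24.7 in replicate 2.

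Among the Sprouty genes, SPRY2 had a region at its promoter, SPRY1 had only distal regions, and SPRY4 had no summit assigned to it. SPRY2 (gene ID 10253, chromosome 13, 80335976 to 80341126) had summits at 80341470 and 80341478, 355 and 363 bp upstream of the TSS and 94 bp outside the window printed above. The scores were 72.9 and 71.3, at percentiles 90.4 and 87.2. A region 20921 bp upstream was higher in both lists, with scores of 79.1 and 112.4 (91.4 and 92.7), and another, in an LTR element 58895 bp upstream, had 24.0 and 57.1 (69.6 and 83.9). All 3 summits of SPRY2 in replicate 2 were shared, and 1 of its 4 in replicate 1 was not.

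SPRY1 (gene ID 10252, chromosome 4, 123396795 to 123403760) had 6 shared regions, all downstream of the gene and 19210 to 104700 bp from the TSS. The highest had summits at 123479011 and 123479001, 79521 bp from the TSS, with scores of 128.2 and 212.4 (percentiles 95.9 and 97.2). A neighbouring region was 981 bp away, with scores of 35.2 and 79.8 (78.8 and 88.7). The other 4 were lower, with replicate 1 scores from 13.2 to 24.7 and replicate 2 scores from 19.2 to 37.5. No summit of either list lay within 10 kb of the TSS of SPRY1, although its start window holds a TCATGTG match. Replicate 2 alone had 4 more summits, 2 of them in introns of AFG2A.

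SPRY4 (gene ID 81848, chromosome 5, 142310430 to 142325021) was the nearest gene of no summit, but summits around it were assigned to 2 non-coding transcripts named after it. Summits at 142299021 and 142299027, nearest to SPRY4-IT1 in the annotation, were 25226 and 25220 bp from the RefSeq start of SPRY4. Their scores were 38.2 and 128.9, at percentiles 80.2 and 93.9. Summits at 142441648 and 142441638, in an intron of SPRY4-AS1 and 117401 bp from that start in replicate 1, had scores of 214.8 and 245.8 (percentiles 98.5 and 97.9). Those percentiles are within the range of the top regions of the other members. No summit fell inside the SPRY4 span in either list. Around the other members, a shared region of another gene within 50 kb of the gene's span was found at none.

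The strongest region of each Spred gene lay far from the start sites. SPRED1 (gene ID 161742, chromosome 15, 38252836 to 38357249) had 7 shared regions within 51023 bp of the TSS. At its promoter, summits at 38252252 and 38252247 lay 599 and 604 bp upstream and were the weakest promoter region of the 6 genes with one, with scores of 9.97 and 12.0 (percentiles 39.8 and 44.8). A region in intron 1, 1890 bp downstream, had 32.2 and 34.8 (77 and 74.7). The highest was intergenic, 35424 bp upstream, with scores of 53.2 and 90.4 (86.1 and 90.2). SPRED1 was the only one of the 9 genes with regions that had none in the top 10% of scores of both lists.

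SPRED2 (gene ID 200734, chromosome 2, 65307175 to 65432599) had 6 shared regions of 11 summits in replicate 1 and 9 in replicate 2. Its strongest was 304400 bp upstream, at 65736922 and 65736923, with scores of 114.1 and 250.0 (percentiles 95 and 97.9). This was the farthest of the 57 regions from its TSS, in an interval of 1164 kb between protein-coding neighbours. The region nearest to a start lay in intron 1, in a CpG island 1449 bp downstream, with scores of 15.4 and 8.23 (56.4 and 30.6). A summit annotated to the promoter of an internal start, 977 bp upstream of it with a score of 3.91, was in replicate 1 alone.

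Of the PEA3 genes, ETV1 and ETV4 had shared regions at annotated promoters and ETV5 had its regions within and beyond the gene body. ETV1 (gene ID 2115, chromosome 7, 13891229 to 13991425) had summits at 13990583 and 13990547, 119 and 155 bp downstream of one of its start sites and 842 and 878 bp downstream of the outermost start, whose upstream sequence is printed above. The scores were 58.5 and 84.4, at percentiles 87.5 and 89.4. Regions 17903 and 29688 bp upstream were higher, with scores of 61.5 and 77.8 in replicate 1 and 135.4 and 118.1 in replicate 2. The order of these 2 differed between the lists, so neither stood above the other. Of its 10 regions, 4 were within the gene span, 3 of them in introns, and 2 lay in an intron of DGKB more than 200 kb upstream of the TSS of ETV1.

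ETV4 (gene ID 2118, chromosome 17, 43527846 to 43546340) had 4 summits in each list, and all 4 were shared. The strongest were at 43530874 and 43530881, with scores of 79.5 and 116.1 (percentiles 91.4 and 93.0). They were annotated as promoter, 439 and 446 bp upstream of an internal start of the gene that is 2589 bp from the downstream end of its span, so this region lies inside the gene for transcripts from the outer start. Regions 4174 and 4646 bp from that start had scores of 23 and 16.2 in replicate 1 and 18.3 and 33.1 in replicate 2. The fourth, 6062 bp away, had 8.40 and only 2.84, at percentiles 33.0 and 2.12. Transcripts of DHX8 overlap ETV4 here, and the annotation assigned 2 of the replicate 1 summits to exons of DHX8.

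ETV5 (gene ID 2119, chromosome 3, 186046314 to 186109089) had 9 shared regions of 12 summits in replicate 1 and 19 in replicate 2, and no shared region within 10 kb of its TSS. The strongest fell in exon 6 of 13, 27988 bp downstream of the TSS at 186081124 and 186081161, with scores of 135.4 and 177.7 (mean percentile 96.3 ± 0.0884, SD, n = 2). At the other end of the gene stood 2 strong regions 1885 bp apart. One was in the 3′ untranslated region of the last exon, with scores of 72.7 and 138.4, and the other just past the gene, with 67.2 and 137.9. In intron 5, 11239 bp from the TSS, a region had 47.9 and 60.9 (percentiles 84.5 and 85.0). The 3 shared regions upstream lay in DGKG and were weak, with replicate 1 scores of 3.91 to 12.8 and replicate 2 scores of 5.55 to 19.8.

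**Figure D3:**
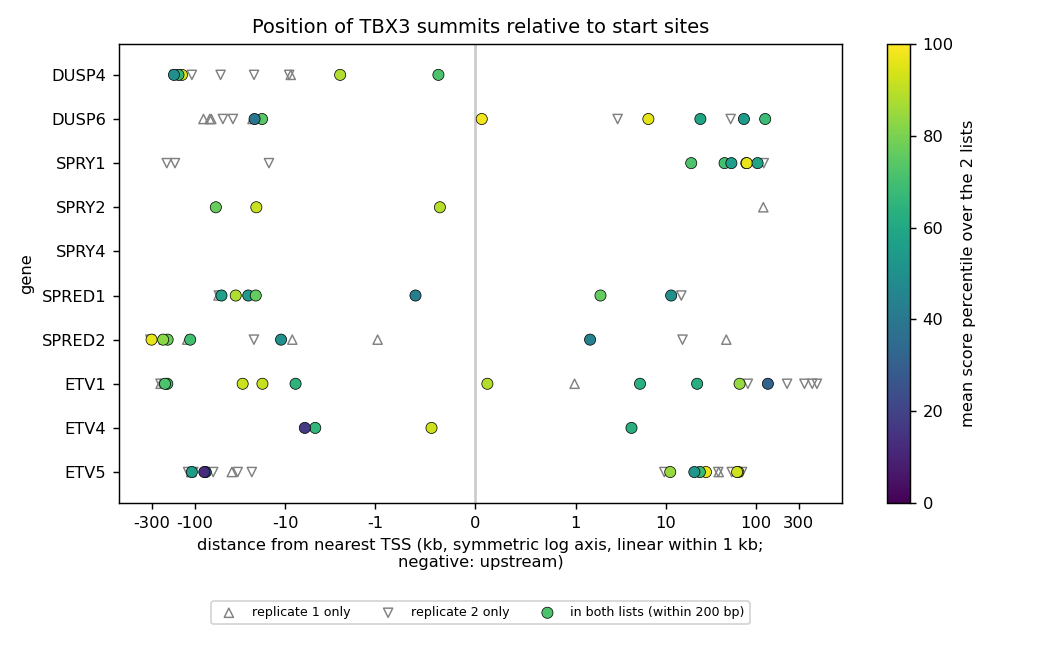
Distance of each summit from the nearest TSS in kb (x axis, symmetric log scale that is linear within 1 kb, negative values upstream) for each of the 10 genes (y axis); filled circles are the 57 shared regions, coloured by mean score percentile, and open triangles are summits of 1 list. DUSP4, DUSP6, SPRY2, SPRED1, ETV1 and ETV4 have a filled circle within 1 kb, and the SPRY4 row is empty.

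Within the set, promoter regions were not always the strongest of their gene. The top region, by the lowest sum of its 2 score ranks, was at the promoter at DUSP6 and at that of an internal start at ETV4. It was 20921 to 304400 bp from the TSS at DUSP4, SPRY1, SPRY2, SPRED1, SPRED2, ETV1 and ETV5. Of the 57 regions, 6 lay within 1 kb of a TSS (10.5%, against 3.93% of all shared regions with a distance), 9 from there to 10 kb, 18 from there to 50 kb and 24 beyond. The median distance was 25737 bp, against 51090.5 bp for all shared regions. In the annotation, promoters held 7 of the 74 member summits in replicate 1 and 6 of the 91 in replicate 2 (9.46% and 6.59%), against 2.33% and 2.12% of all summits. Outside satellites, where all member summits lay, the shares of all summits were 2.75% and 2.46%.

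Of the 10 genes, 8 had a region in the top 10% of scores of both lists, all but SPRED1 and SPRY4, where 6.90% of protein-coding genes had one. By regions, 10 of the 57 were in the top 10% of both lists (17.5%), against 12.4% of all shared regions, so the shares of regions were closer than the shares of genes. The median percentile of the 57 was 69.6 in replicate 1 and 74.4 in replicate 2, and over all shared regions it was 63.6 and 70.5. The replicate 2 percentile was the higher in 42 of 57 regions and in 67.0% of all shared regions. By family the median percentiles in replicates 1 and 2 were 70.9 and 75.0 for the 12 DUSP regions, 70.2 and 83.9 for the 9 SPRY regions, 68.5 and 69.6 for the 13 SPRED regions and 60.6 and 73.4 for the 23 ETV regions.

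**Figure D4:**
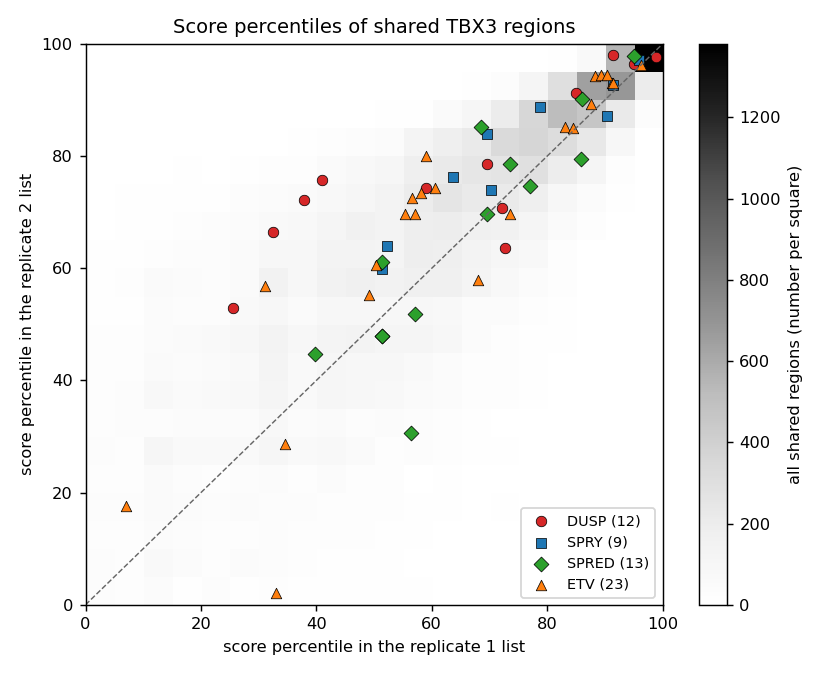
Score percentile of each shared region in replicate 1 (x axis) and replicate 2 (y axis), for the 57 regions of the 10 genes by family and, in grey squares, the number of all 22702 shared regions; the dashed line marks equal percentiles. Of the 57 points, 42 lie above the line, and the top right corner holds the 10 regions in the top 10% of both lists.

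The median score of member summits without a partner was low, as in the lists as a whole. Their median percentile was 27.2 among 17 summits in replicate 1 and 30.3 among 34 in replicate 2, against 20.8 and 26.6 for all summits without a partner. The highest of them in each list were in intron 7 of ETV5, with scores of 52.9 and 82.6 (percentiles 86.0 and 89.2), and stood 472 bp apart, past the limit of 200 bp. In replicate 2 the next highest were those of SPRY1 at 123522109 and DUSP6 at 89349929, at percentiles 67.0 and 66.5. Pairs at DUSP4 (358 bp apart), SPRED1 (517 bp) and ETV1 (774 bp) were the other summits nearest to the limit from outside, and the widest pair inside it was the 142 bp of an ETV5 region. Summits in annotated repeats were fewer than in the whole lists, 13 of 74 and 17 of 91 (17.6% and 18.7%) against 33.0% and 34% of all summits outside satellites. No member summit lay in a satellite, the class that held 15.4% and 14.1% of all summits.

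The same counts were made for 4 lists of other pathway genes. Of all protein-coding genes, 28.6% had a shared region at any distance, 10.1% within 10 kb and 2.99% within 1 kb. Of 20 genes of the RAS-ERK core, 6 had a shared region at any distance (30%) and 0 within 1 kb. Of 10 other DUSP, SPRY and SPRED genes, 4 had one at any distance and 1 within 10 kb, DUSP16, a phosphatase of the stress-activated kinases. Its strongest region was 809 bp from the TSS, with scores of 98.2 and 118.0 (percentiles 93.5 and 93.1).

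Of 20 other genes induced by ERK, 10 had a shared region (50.0%), 4 within 10 kb and 2 within 1 kb. The backgrounds were 28.6%, 10.1% and 2.99%. At FOS, the immediate early AP-1 gene, summits lay 345 bp upstream of the TSS, with scores of 90.4 and 127.3 (percentiles 92.8 and 93.8). At FOSL2, another AP-1 gene, the distance was 296 bp and the scores were 39.6 and 42.6. IER2 had a region at its end with scores of 36.9 and 43.4, and KLF6 had the other region within 10 kb. Of 20 other ETS factors, 7 had a shared region (35.0%, against 28.6%) and 5 had one within 10 kb, ELF2, ETS1, ELK3, ETV6 and EHF. That of ELF2, 93 bp from its TSS, was the highest, with scores of 68.1 and 69.5, followed by ETS1 with 35.2 and 30, and that of ELK3 had 6.57 in replicate 1 and 51.2 in replicate 2. At 10 kb the shares were 10.0%, 20.0% and 25.0% of the last 3 lists, beside the background of 10.1% and the 7 of 10 members, and no test of these differences was made. With scores at or above the list median, the counts of the last 3 lists were 1, 3 and 2, against 7.2% of protein-coding genes. Among the 5000 highest scores of each list they were 1, 1 and 0, against 2.53%.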

How the data were processed

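TBX3-3xHA was profiled by ChIP-seq in 501mel cells, and the peak lists of the 2 ChIP samples were analysed. Groups and replicate numbers came from the sample titles. Per the file headers, each list is a file of peak summits of 1 sample annotated with HOMER annotatePeaks.pl against hg38, so replicates were not pooled. The submitters' processing notes name FastQC 0.11.7, cutadapt 2.8, Bowtie2 2.3.5, MACS2 2.1.2 and SAMtools 1.9, with no role or order. Each summit carries a score as deposited, whose scale, threshold and control are not given in the sources used here. Start equalled end in every entry, so peaks have no width. The read depth is unknown, and the number of summits can depend on it.

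Gene, distance and annotation are those deposited with the replicate 1 summit. Summits were paired as mutual nearest neighbours within 200 bp, with Python 3.11.15, pandas 2.3.3 and scipy 1.17.1, and pairing was tested on simulated data. Percentiles are those of the score within its own list. The background is 19974 protein-coding genes on chromosomes 1 to 22 and X of the RefSeq table (GRCh38.p14), matched by gene ID. Of 12468 gene IDs in the lists, 12420 matched (99.6%). Motifs were searched on both strands of the RefSeq start windows. All 10 genes and every summit of them are accounted for, the strongest region of a gene being that with the lowest sum of its 2 score ranks. Other pathway genes are named where a shared region lay within 10 kb, with values for at most the 8 lowest rank sums. Members and lists were chosen with earlier results of these data known. Sequence around the summits was not analysed here, and 1 pathway gene and 1 start-site sequence are not reported here. Alternatives covered the pairing distance, score limits, satellites, single lists, the annotation used and the start sites.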

Additional observations from a re-analysis of the deposited data

How the results depend on the processing

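For 17 results, 120 alternatives were run, of which 100 stayed within 1.5 times the count or within the interval. Of those set beside a background, 0 changed direction. The 40 for the other pathway lists had no background beside them, so their direction was not judged. Some of the 100 could not move, so they say nothing of stability. No member summit lay in a satellite, and both lists named the same gene for every shared member region. Regions in the top 10% of both lists also pass the limits at the list median and the 5000 highest scores. The limits of 1 kb, 5 regions and the top 10%, the 1000 bp pairing, the RefSeq start sites, the 250-base windows and the alternatives for other pathway genes were chosen after seeing the data. In replicates 1 and 2, the share of member summits with a partner moved to 52.7% and 42.9% within 50 bp and to 91.8% and 77.6% at or above the list median, and in replicate 2 to 88.2% in the 5000 highest scores. Over all summits these settings gave 49.9% and 40.0%, 84.7% and 69.4%, and 79.9%. Genes with a shared region moved from 9 to 5 when the summit had to lie inside the gene span, where the background was 20.9%. Among the 5000 highest scores, 4 genes had a region within 10 kb and 3 within 1 kb, against backgrounds of 2.53% and 0.806%. Genes with 5 or more regions moved from 7 to 3 within 50 bp, to 4 at or above the median and to 0 among the 5000 highest scores, settings that leave fewer regions. The backgrounds in these 3 settings were 1.34%, 1.2% and 0.0801%, against 2.69% in the main setting. The TGANTCA match was in 0 windows when only the 250 upstream bases were searched. With either list alone, members with any summit and within 50 kb stayed at 9, those within 10 kb were 7 to 8, within 1 kb 6 to 7, with 5 or more summits 7, and in the top 10% of that list 8 to 9. The backgrounds were higher than for shared regions. In replicates 1 and 2 they were 34.1% and 38.4% for any summit, 28.6% and 32.6% within 50 kb, and 13.4% and 15.5% within 10 kb. Within 1 kb they were 3.96% and 4.26%, for 5 or more summits 4.57% and 6.3%, and in the top 10% 7.33% and 9.47%. Of 40 alternatives for the other pathway lists, 8 moved by more than 1.5 times. The motif search around summits was not run, since no genome was used here. No paired analysis was possible because the input samples that share the replicate numbers were not analysed and no result comes from a test.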
